A study of Mus musculus with 2 samples.

Results

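The cells described here are C1q-positive macrophages of mouse B16-F10 melanoma that carried little Arg1 and little Cxcl9 or Cxcl10 RNA. They were chosen by measured values: from the raw UMIs (unique molecular identifiers, 1 per captured RNA molecule) of each barcode. A barcode needed at least 300 genes and at most 10% mitochondrial UMIs, at least 5 Lyz2 and 1 Csf1r UMIs, and no UMI of Cd3e, Cd79a or Flt3. It could hold at most 1 Cd209a UMI, 1 UMI of Xcr1 and Clec9a together, and 2 of Mki67 and Top2a together. These terms left a monocyte and macrophage gate of 7035 cells. The cells of interest held at least 10 UMIs of C1qa, C1qb and C1qc together, at most 2 of Arg1 and at most 9 of Cxcl9 and Cxcl10 together. They numbered 992 of the 22490 barcodes that passed the quality terms and of 23731 barcodes in all. The iKO samples, numbered 1 to 4, gave 127, 156, 88 and 195 of them. The control samples gave 54, 73, 106 and 193. Their median depth was 16377 to 19212 UMIs per cell in the iKO samples and 14233 to 17110 in the control samples.

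The study asked how loss of Trex1 in the host shapes the immune cells of a tumour. The iKO mice were Trex1 fl/fl with the R26CreERT2 allele, a tamoxifen-inducible Cre recombinase expressed from the ubiquitous Rosa26 locus, so the deletion was not limited to macrophages. Controls were Trex1 wt/fl with the same Cre allele, so they too could lose 1 copy of Trex1. All mice were male, 8 to 12 weeks old, and received 1000 B16-F10 melanoma cells (an established mouse line) in Matrigel intradermally on both legs, then 1 mg of tamoxifen daily from day 5 for 3 days. Tumours were taken on day 14, digested with enzymes, enriched for leukocytes and sorted for live CD45-positive cells. The labels call the cells lymphocytes, but the sort took all leukocytes. Droplet single-cell 3′ RNA sequencing was run as 1 pool of 4 hashtagged samples per genotype. Genotype and pool therefore cannot be told apart. The labels do not say whether each hashtagged sample is 1 mouse, so p-values measure only the spread between these samples.

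C1qa, C1qb and C1qc encode the chains of C1q, the recognition molecule of the classical complement pathway. Tissue and tumour macrophages make it, while blood monocytes and neutrophils largely do not. C1q-rich tumour macrophages are usually described by Apoe, a lipid carrier, Ms4a7, a membrane protein of mature macrophages, and genes of antigen presentation and clearance of dead cells. TREX1 is a cytosolic DNA exonuclease. When it is lost, DNA in the cytosol can engage cGAS and STING, which drive type I interferon, and interferon in turn acts on genes with an interferon-stimulated response element.

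Trex1 itself could not check the labels in these cells: it was listed at 0 UMIs in all 8 samples. A count of 0 allows up to 3 counts, or 0.784 to 3.59 CPM (UMIs of a gene scaled to a common library total) depending on the sample, for counting error only. Atrip, which lies directly beside Trex1, gave 21, 32, 11 and 46 UMIs in the iKO cells and 13, 7, 18 and 21 in the control cells. No cell barcode was shared within a pool, 45 were shared between the pools, and none of those was among the 992 cells. The 4 iKO samples fell into 2 pairs that differed from each other more than any control samples did. The chi-square per degree of freedom between summed gene counts was 3.00 for iKO 1 against 2 and 3.13 for iKO 3 against 4. It was 11.4 to 12.7 between the pairs, and 3.14 for the closest control samples, with every control comparison below 11.4. Several results below are given also without 1 of these pairs.

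Within the macrophage gate the label held for its markers. C1qa, C1qb and C1qc stood at 2113 ± 310, 3178 ± 318 and 1391 ± 234 CPM (SD, n = 8) in the summed cells. These 3 genes belong to the rule and are given as a description. Among the cells of the gate with neither Arg1 nor Cxcl9/Cxcl10 and fewer than 10 C1q UMIs, called C1q-low below (3438 cells), they stood at 20.3, 35.2 and 15.2 CPM. The 6564 Cd3e-positive cells, which should not make C1q, gave 22.2, 32.1 and 12.8 CPM. Ms4a7 stood at 524 ± 203 CPM in the C1q-positive cells. It averaged 337 CPM in the 963 Arg1-positive cells, 249 CPM in the 1642 Cxcl9/Cxcl10-positive cells, 98.7 CPM in C1q-low cells and 9.10 CPM in Cd3e-positive cells. Apoe averaged 3770 ± 2293 CPM, against 1816, 2173, 1208 and 58.6 CPM in the same order. Apoe ranged from 733 to 7377 CPM between samples of the C1q-positive cells.

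Cells just inside and just outside each limit are given here without a test. The 68 cells with 10 to 14 C1q UMIs had 1341 CPM of Apoe and 175 CPM of Ms4a7, and the 111 cells just outside, with 5 to 9, had 1340 and 267 CPM. The 60 cells with 7 to 9 UMIs of Cxcl9 and Cxcl10 had 2102 CPM of Apoe and 721 CPM of Irf7. The 25 cells just outside, with 10 to 12, had 4203 and 469 CPM. The 48 cells with 2 Arg1 UMIs had 2456 CPM of Apoe, and the 45 cells with 3 to 4 had 2969 CPM. Of the 992 cells, 48.9% had no Cxcl9 or Cxcl10 UMI and 80.4% had no Arg1 UMI. Cells at the Cxcl9/Cxcl10 ceiling came from both genotypes, 39 iKO and 21 control inside it. The ceiling keeps cells with the most Cxcl9 and Cxcl10, both interferon-inducible chemokines, out of the population by construction.

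RNA of other cell types was measured as summed marker lists. Summed over 13 markers of T cells the C1q-positive cells held 83.4 to 126 CPM in the iKO samples and 50.6 to 122 CPM in the control samples. The 13 markers of cytotoxic lymphocytes (none at 0) summed to 93.7 to 205 CPM in iKO and 43.7 to 65.7 CPM in control samples, without overlap. The 10 melanoma markers summed to 40.1 to 56.5 and 33.6 to 51.4 CPM, 61.8% of it from Mitf. Of 10 markers of fibroblasts and endothelium, Dcn, Lum and Cldn5 were at 0, and the sum was 18.4 to 58.8 CPM in iKO and 7.52 to 16.7 CPM in control samples. Of this sum 51.0% came from Kdr, which was itself called higher in iKO (log2 fold change 2.56, edgeR adjusted p = 0.0300). Of 8 mast cell and basophil markers, Cpa3, Mcpt4, Fcer1a, Mcpt8 and Ms4a2 were at 0. The sum was at most 0.575 CPM in iKO and 0.873 CPM in control samples. Krt5, Krt14 and Krt1 of 6 keratinocyte markers were at 0, and the sum was 1.57 to 3.68 and 2.23 to 5.98 CPM. Of 8 B and plasma cell markers only Jchain was at 0. These markers summed to 73.7 to 93.7 CPM in iKO and 62.9 to 103 CPM in control samples, 72.4% of it from Ighm. Neutrophil markers (12 genes, none at 0) summed to 128 to 475 CPM in iKO and 352 to 1207 CPM in control samples. Dendritic cell markers (12 genes, none at 0) summed to 981 to 1421 and 506 to 890 CPM, 57.4% of it from Bst2, which is also interferon-inducible.

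Of the 15 most abundant transcripts that were not mitochondrial, ribosomal or of the rule, 8 are given here. Tmsb4x, which encodes the actin-binding thymosin beta 4, stood at 16912 ± 863 CPM, and the ferritin heavy chain gene Fth1 at 15048 ± 1598 CPM. Cd74, the invariant chain of MHC class II, reached 11260 ± 2744 CPM. H2-Aa, H2-Ab1 and H2-Eb1, chains of the class II molecules themselves, stood at 4329 ± 1289, 4220 ± 1002 and 3540 ± 1107 CPM. Fcer1g, the signalling chain shared by Fc receptors, stood at 4205 ± 786 CPM, and Lgals3, a galectin of phagocytes, at 3485 ± 416 CPM. These are levels from UMIs at 3′ ends, scaled alike for all genes. How well each gene was captured was not measured, so the order between genes is approximate.

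Compared with the rest of the gate, in every sample, the C1q-positive cells were richest in Hpgds, Pltp, Cd72, Ms4a7, Clec4b1 and Apoe. The populations were cut from the same cells, so these ratios are descriptions without a test. Hpgds, which makes prostaglandin D2, stood at 54.6 CPM against 15.6 CPM in the other cells, a median log2 ratio of 1.72 over samples (0.89 to 2.39). Pltp, a phospholipid transfer protein, stood at 175 against 58.7 CPM (log2 ratio 1.53, 0.99 to 2.49). Cd72, an inhibitory lectin-like receptor, stood at 198 against 72.2 CPM (1.45, 1.33 to 1.61). Apoe had a log2 ratio of 1.32 (0.56 to 1.95) and Ms4a7 of 1.41 (1.06 to 1.96). The others among the 15 most enriched were Selenop, Dhrs3, Cd81, Timp2, Slamf9, Tmem86a, Frmd4b, Rab3il1 and Ccl8, each higher in 8 of 8 samples. Mertk, a receptor for dead cells, was also higher in 8 of 8 samples (30.2 against 11.9 CPM). So were 1055 of the 8600 genes tested below.

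**Figure D1:**
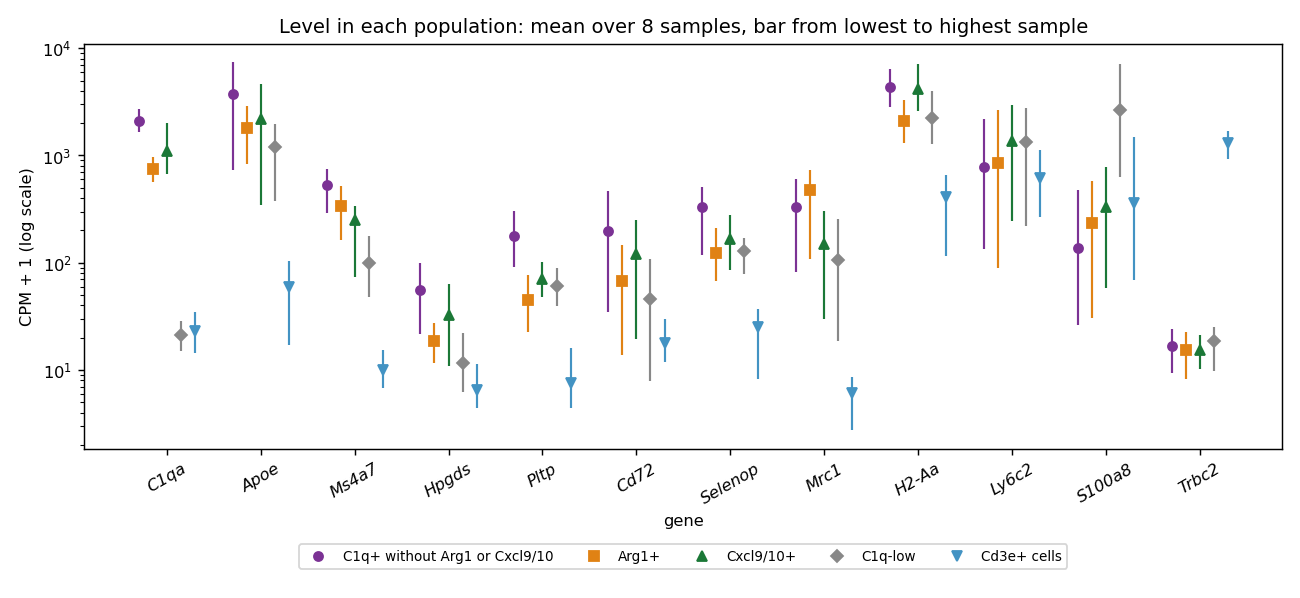
Level of 12 genes (log axis, CPM + 1) in the C1q-positive cells, 3 other populations of the monocyte and macrophage gate and Cd3e-positive cells; points are means of 8 samples and bars run from the lowest to the highest sample. Apoe, Ms4a7, Hpgds, Pltp, Cd72 and Selenop have their highest mean in the C1q-positive cells, Mrc1 in Arg1-positive cells and S100a8 in C1q-low cells.

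Granulocyte and monocyte genes were on the other side. S100a8 and S100a9, the calprotectin subunits, stood at 135 and 177 CPM against 1635 and 1857 CPM in the rest of the gate. Retnlg, Lcn2 and Wfdc21 were lower in 8 of 8 samples, with median log2 ratios of -4.77, -4.27 and -3.71. Ly6c2, the marker of inflammatory monocytes, was lower than in the rest in 8 of 8 samples (788 against 1271 CPM). Ccr2, the receptor that brings monocytes to tissue, stood at 860 against 875 CPM and was higher in only 4 of 8 samples. Spp1 stood at 1114 CPM in the C1q-positive cells and 6845 CPM in Arg1-positive cells. Of genes of long-lived resident macrophages, Lyve1 and Cd163 were sparse, at 0.55 and 5.18 CPM, while Folr2 averaged 31.6 CPM and Mrc1 330 CPM. Over the 13 tested genes of the resident-type list the median log2 ratio to the rest of the gate was 0.89, against 0.04 over all tested genes. Of these 13, 3 were higher than the rest in 8 of 8 samples and 1 was lower in 8 of 8. Among all 8600 tested genes, 1055 were higher in 8 of 8 samples and 708 lower in 8 of 8.

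The C1q-positive cells varied among themselves along the same line. Each cell was thinned to 5000 UMIs, leaving 974 cells after 18 shallower ones (6 iKO, 12 control) were set aside. Each sample's cells were then split at that sample's median C1q count. Cells above the median held more Apoe in 8 of 8 samples (mean 34.8 against 10.0 UMIs per cell) and more Ms4a7 in 8 of 8 (4.56 against 1.27). Pf4, a platelet-factor chemokine of resident-type macrophages, was higher above the median in 8 of 8 samples (6.76 against 2.48). Monocyte genes summed over the list were lower there in 8 of 8 samples (21.5 against 33.3 UMIs). Resident-type genes were higher in 8 of 8 (23.3 against 12.8 UMIs). Interferon genes went the other way, with the type I list above the median higher in 2 of 8 samples, with means of 58.5 and 67.0 UMIs. C1q was part of the rule, so these contrasts carry no test.

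Shares of cells were compared between the genotypes with an exact two-sided permutation test over samples, which cannot go below 0.0286 with 4 against 4. Of all kept barcodes, the C1q-positive cells made up 3.28%, 2.64%, 6.75% and 7.94% across iKO samples 1 to 4. They made up 2.73%, 4.26%, 3.84% and 7.70% across the controls in the same order. The groups overlapped, and the means of 5.15% ± 2.59 and 4.63% ± 2.15 (SD, n = 4) did not differ detectably (exact p = 0.886, adjusted 0.886 over 8 shares). Within the monocyte and macrophage gate they were 13.3% ± 4.67 in iKO and 18.9% ± 6.50 in control samples (exact p = 0.200, adjusted 0.267). The iKO samples 1 and 2 were the low ones, at 9.05% and 9.47%, while iKO 3 and 4 held 16.7% and 17.9%. Cxcl9/Cxcl10-positive cells, the population removed by the ceiling, took 44.7% and 35.5% of the gate in iKO samples 1 and 2, and 12.5% and 13.1% in iKO 3 and 4. In control samples 1 to 4 they took 18.5%, 7.31%, 4.66% and 7.38%, so the groups overlapped (exact p = 0.143, adjusted 0.267). Without that ceiling, C1q-positive cells with little Arg1 were 20.9% ± 1.62 of the gate in iKO and 24.4% ± 3.79 in control samples (exact p = 0.171).

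Gene levels were compared between genotypes on UMIs summed over the C1q-positive cells of each sample, from 836801 to 3825681 UMIs, with edgeR's quasi-likelihood test. Of 8600 genes outside the rule that passed the low-count filter, 274 were called at a Benjamini-Hochberg adjusted p under 0.05, or 3.19%. The 162 genes higher in iKO were 1.88% of those tested and the 112 lower genes 1.3%. All iKO samples lay outside the range of all control samples for 963 genes, or 11.2% (5.71% with iKO higher, 5.49% with iKO lower). The median log2 fold change over all genes was -0.01. Leaving out single samples moved the number of calls by more than 1.5 times in 7 of 8 cases: to 41 without control 2, 77 without iKO 2, 96 without control 3, 119 without iKO 1, 126 without control 4, 164 without control 1 and 514 without iKO 3. All of the 274 that were still tested kept their direction each time, and 34 of them, 17 higher and 17 lower, stayed called in all 8 leave-outs. Without iKO samples 1 and 2 together 124 genes were called, and without iKO 3 and 4 together 1121.

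**Figure D2:**
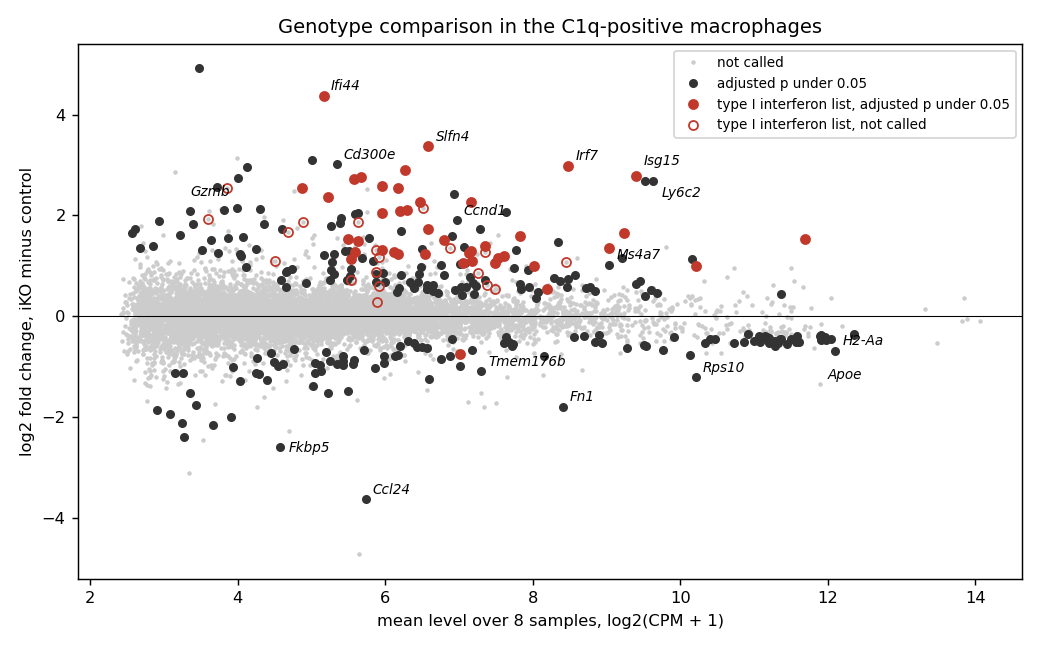
Log2 fold change (iKO minus control) against mean level, log2(CPM + 1), for the 8600 genes tested in the C1q-positive cells; dark points have an adjusted p under 0.05 and red points belong to the type I interferon list, filled where called. Of the 61 interferon genes tested, 60 lie above 0, with Shisa5 below it.

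Among the lists examined, type I interferon response genes had the most members called higher. Of 64 genes in this list 61 were tested, 41 were called higher, 1 lower (Shisa5), and 60 had a fold change above 0. Of all 8600 genes tested, 1.88% were called higher and 1.3% lower. Those shares belong beside the counts of called genes in every list below. The list's median log2 fold change was 1.36, and between 1.18 and 1.57 with any 1 sample left out. The number called was 8 without control 2, 15 without control 4, 17 without iKO 2, 22 without iKO 1, 24 without control 3 and 25 without control 1. It was 22 (median 0.88) without iKO 1 and 2 together and 59 (median 1.79) without iKO 3 and 4 together. Irf7, the transcription factor that amplifies interferon production, stood at 896, 934, 260 and 438 CPM in iKO samples 1 to 4 and at 82.0, 67.6, 132 and 40.1 CPM in the controls, in order (CPM from here on are on edgeR's TMM-scaled library sizes). Every iKO sample was above every control sample, with iKO 1 and 2 highest. The log2 fold change was 2.99 ± 0.44 (SE; edgeR adjusted p = 0.0122). Isg15, a ubiquitin-like modifier, stood at 1625, 2157, 389 and 549 CPM in iKO and 181, 96.4, 219 and 188 CPM in control samples, again without overlap (log2 fold change 2.78 ± 0.50, adjusted p = 0.0172). Ifi27l2a, a mitochondrial interferon-induced protein, was the most abundant gene called in the list. It read 5880, 6226, 3518 and 3978 CPM against 2274, 1522, 1701 and 1269 CPM (1.54 ± 0.21, adjusted p = 0.00921).

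The largest rises of all, among called genes of at least 20 CPM whose groups did not overlap, named many of the same genes. They were Ifi44, Slfn4, Phf11a, Cd300e, Irf7, Ifit3, Isg15, Oasl1, Oas3, Ly6a, Ly6c2 and Isg20. Ifi44 rose from 3.50 ± 2.34 to 66.3 ± 46.2 CPM (SD, n = 4), a log2 fold change of 4.37 ± 0.68. Slfn4, a schlafen protein of myeloid cells, rose from 16.8 ± 4.85 to 173 ± 106 CPM (3.37 ± 0.47). Ifit3, which belongs to the family of RNA-binding antiviral proteins, and Oasl1 and Oas3, of the oligoadenylate synthetase family, had log2 fold changes of 2.91, 2.76 and 2.71. Cd300e, an activating receptor of monocytes, rose from 10.0 ± 6.88 to 69.1 ± 30.1 CPM (3.02 ± 0.47). Irf7, Slfn4 and Oasl1 were called in each of the 8 leave-outs, Ifi44, Cd300e, Ifit3, Oas3 and Ly6c2 in 7, and Isg20 in 2. Several of these genes (the Oas, Ifi, Slfn, Ly6 and Phf11 families) have near-identical relatives among which reads may be split.

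Promoter sequences are shown for the 4 genes of that group whose window holds a match to the interferon-stimulated response element, searched on both strands as GAAA, any 2 bases and GAAA again. The windows, from RefSeq on GRCm38.p6, cover 250 bases before to 50 bases after each gene's annotated start. The counts were made on another build, GRCm39, and carry no coordinates of their own. Of the 12 genes with the largest rises, all but Ly6a had a window in the table, and Isg15, Ifit3, Oas3 and Phf11a had a match. Capitals mark every match, and overlapping matches run together; each stretch is printed 5′ to 3′ on the gene's strand.
Isg15: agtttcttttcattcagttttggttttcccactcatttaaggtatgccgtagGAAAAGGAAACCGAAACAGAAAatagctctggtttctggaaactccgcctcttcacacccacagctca
Ifit3: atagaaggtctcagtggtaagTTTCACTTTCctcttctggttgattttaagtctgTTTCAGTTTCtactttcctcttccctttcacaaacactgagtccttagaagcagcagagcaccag
Oas3: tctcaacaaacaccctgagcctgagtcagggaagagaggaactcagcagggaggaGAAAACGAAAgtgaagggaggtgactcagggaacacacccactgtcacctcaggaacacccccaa
Phf11a: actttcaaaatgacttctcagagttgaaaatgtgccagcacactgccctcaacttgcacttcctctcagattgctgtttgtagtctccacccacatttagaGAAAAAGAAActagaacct
The Isg15 stretch is chr4:156200829-156200948 on the minus strand, Ifit3 chr19:34583352-34583471 on the plus strand, Oas3 chr5:120777670-120777789 on the minus strand and Phf11a chr14:59297533-59297652 on the minus strand. All 4 lie before the annotated start. Isg15 has 3 matches that overlap in 1 run, Ifit3 has 2 separate ones, on the strand opposite to the gene, and Oas3 and Phf11a have 1 each.

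Counted over groups, 30 of the 128 genes called higher that had a window in the table held the element (23.4%). Among genes called lower it was 3 of 85 (3.53%), among all 6982 tested genes with a window 4.21%, and among all 32851 windows 3.44%. In the type I interferon list the share was 53.1%, and among called higher genes outside that list 13.7%. A gene counts here when any of its annotated starts has a match. These are matches of letters, given without a test, and they show no binding.

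Seen cell by cell, the interferon list lay higher in iKO at the lower end of the population, at its median and at its upper end. In iKO samples 1 to 4 the median cell thinned to 5000 UMIs held 105, 105, 47 and 65 UMIs of the type I interferon list. In control samples 1 to 4 it held 34.5, 23, 28 and 21. The 10th percentile of the iKO samples was 50.8, 53.2, 24.7 and 23.9 UMIs. In iKO 1 and 2 it lay above every control median, and in iKO 3 and 4 above those of control 2 and 4. The 90th percentile was 92.3 to 240 UMIs in iKO and 46.2 to 76.8 in control samples. The share of cells with an Irf7 UMI at that depth was 53.4% to 92.1% in iKO and 14.2% to 29.1% in control samples. Among Cd3e-positive cells it was 34.2% to 38.8% and 6.16% to 13.1%, at median depths of 12827 and 6618 UMIs before thinning. The part of free RNA in these shares was not tested. Of the 9 lists followed per cell, 2 others did not overlap. The lysosome and cathepsin list had medians of 97.5 to 106 UMIs in iKO and 79 to 86 in control samples, and the dissociation stress list 61 to 69 and 73 to 77, which overlapped when cells were thinned to 3000 UMIs. Without thinning, 34.7% to 98.7% of C1q-positive cells had an Irf7 UMI.

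**Figure D3:**
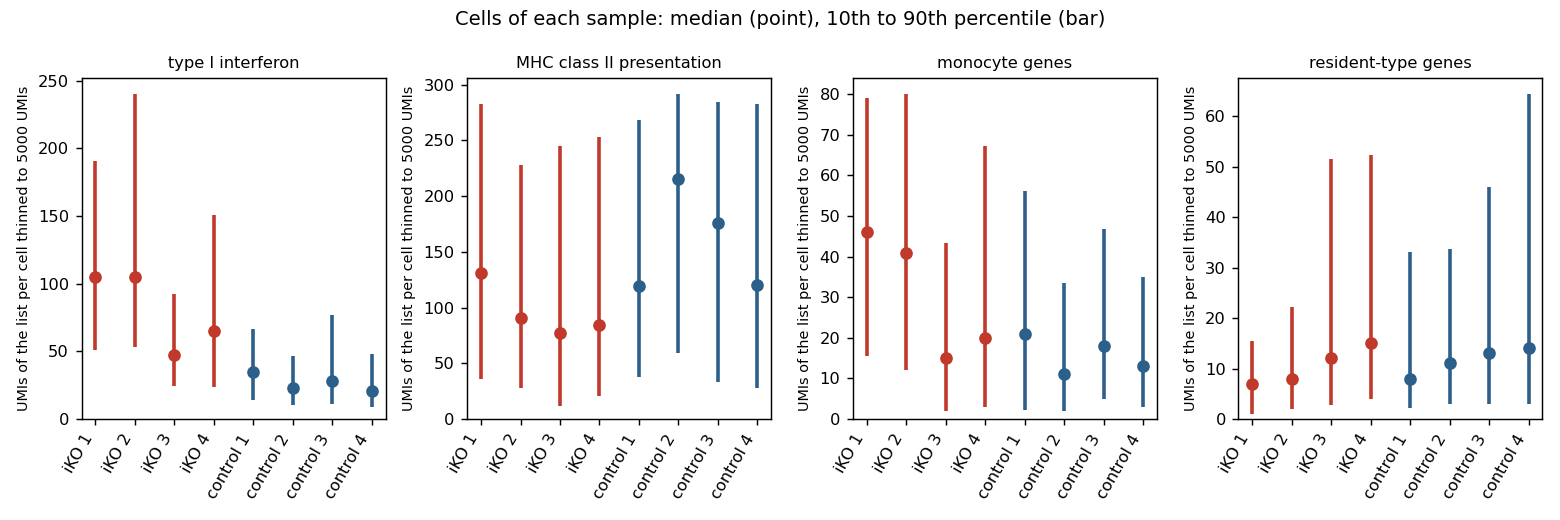
UMIs of 4 gene lists per C1q-positive cell thinned to 5000 UMIs, by sample; points are medians and bars run from the 10th to the 90th percentile of cells. The medians of the type I interferon list are 47 to 105 in iKO and 21 to 34.5 in control samples, while the other 3 lists drawn overlap between genotypes.

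Fewer members were called in the interferon gamma list. Of 29 genes of the interferon gamma list 22 were tested, 2 were called higher (the immunity-related GTPases Irgm1 and Igtp), none lower, 21 lay above 0, and the median log2 fold change was 1.00. Per cell at 5000 UMIs, iKO 1 and 2 held medians of 13 and 11 UMIs of this list, while iKO 3 and 4, at 4 and 5, lay within the control range of 3 to 5. Irgm1 read 154, 173, 59.5 and 60.2 CPM in iKO and 41.6, 31.5, 37.4 and 30.3 CPM in control samples (1.69 ± 0.36, adjusted p = 0.0286). Gbp2, Fcgr4 and Irf8 were not called. Gbp2 read 426, 399, 71.2 and 41.2 CPM in iKO and 257, 50.5, 62.6 and 96.4 CPM in control samples, so its high values were those of iKO 1 and 2 and control 1.

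MHC class I genes all lay above 0 and few were called. Of 19 tested, 2 were called higher, H2-Q7 and H2-T22, none lower, and the median was 0.75. Over all tested genes 1.88% were called higher. H2-K1, a main class I heavy chain, read 2447, 2492, 1358 and 1722 CPM in iKO and 1454, 1184, 1170 and 892 CPM in control samples, with overlap (0.77 ± 0.20, adjusted p = 0.0616). B2m, the light chain, read 4887, 4791, 2696 and 3217 CPM against 2976, 2750, 2655 and 1997 CPM. None was called in 6 of the 8 leave-outs, while 11 were without iKO 3 and 4 without iKO 4. Without iKO samples 1 and 2 together the class I median was 0.29 with 14 of 19 genes above 0 and none called. Without iKO 3 and 4 together it was 1.24, and 18 of 19 were called higher.

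MHC class II genes lay on the other side. Of 10 tested 3 were called lower, none higher, 9 lay below 0 and the median was -0.52. Over all tested genes 1.3% were called lower. H2-Aa read 4202, 3230, 2754 and 3259 CPM in iKO and 4384, 6654, 6006 and 4567 CPM in control samples, with the highest iKO value just under the lowest control value (-0.68 ± 0.16, adjusted p = 0.0417). H2-DMa, of the peptide-loading complex, read 342 to 485 CPM in iKO and 538 to 643 CPM in control samples (-0.53 ± 0.12, adjusted p = 0.0353). The third, H2-DMb2, was low, at 7.84 to 13.4 and 15.3 to 24.5 CPM. Cd74 (-0.53), H2-Ab1 (-0.48) and H2-Eb1 (-0.63) were not called and overlapped. Calls here were fragile: 0 of 10 were called without iKO 2, iKO 3, iKO 4, control 2, control 3 or control 4, 1 without control 1 and 4 without iKO 1, while the median stayed between -0.64 and -0.41. Without iKO 1 and 2 together 4 were called and the median was -0.70, and without iKO 3 and 4 together none was called and it was -0.33. Per thinned cell the class II list had medians of 77 to 131 UMIs in iKO and 119 to 215 in control samples, overlapping through iKO 1 and control 1 and 4.

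Genes that sense nucleic acids or carry the interferon signal rose in part. Of 25 tested sensing genes 4 were called higher, beside 1.88% of all tested genes, and none lower, with a median of 0.42. Ddx58, the RNA helicase RIG-I, read 77.2, 78.4, 46.0 and 59.0 CPM in iKO and 23.3, 18.9, 28.7 and 19.9 CPM in control samples (1.53 ± 0.21, adjusted p = 0.00798). Its regulator Dhx58 was called as well, and Zbp1, a sensor of Z-form nucleic acid, had a log2 fold change of 1.58. Cgas, the DNA sensor upstream of STING, read 28.7, 31.8, 29.7 and 25.6 CPM against 13.5, 19.8, 17.6 and 17.9 CPM (0.72 ± 0.16, adjusted p = 0.0322), without overlap. Samhd1 and Unc93b1 were not called. Of 20 genes of interferon receptors and signalling, Irf7 and Usp18, a negative regulator of the receptor, were called higher and none lower. Ifngr1, the ligand-binding chain of the interferon gamma receptor, read 127, 116, 188 and 201 CPM in iKO and 305, 288, 331 and 195 CPM in control samples (-0.82 ± 0.21, adjusted p = 0.0582).

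Ms4a7 had the smallest adjusted p of the macrophage markers tested. It read 671, 736, 678 and 729 CPM in iKO and 397, 387, 294 and 310 CPM in control samples. The 4 iKO samples lay close together, without the split between the pairs, and all above the controls (1.02 ± 0.12, adjusted p = 0.00303, called in 8 of 8 leave-outs). Adgre1, which encodes F4/80, read 186, 173, 215 and 228 CPM against 140, 135, 106 and 111 CPM (0.72 ± 0.13, adjusted p = 0.0173). Of 14 tested macrophage markers 4 were called higher (Ms4a7, C3ar1, Adgre1, Fcgr1) and 1 lower (Cd14, the lipopolysaccharide co-receptor, -0.58 ± 0.14, adjusted p = 0.0467), with a median of 0.37. Of the 15 genes most enriched in these cells over the rest of the gate, Ms4a7, Cd72 and Slamf9 were called higher and none lower. Cd72 read 470, 435, 173 and 191 CPM in iKO and 125, 94.6, 62.6 and 35.2 CPM in control samples (2.07 ± 0.42, adjusted p = 0.0232). Slamf9, a receptor of the SLAM family, read 289, 295, 89.2 and 138 CPM against 46.5, 47.8, 43.3 and 21.6 CPM (2.42 ± 0.40, adjusted p = 0.0145).

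Apoe, though a defining marker, was not called and split the iKO samples. It read 768, 742, 4089 and 2996 CPM in iKO samples 1 to 4 and 5170, 7614, 5602 and 3536 CPM in the controls, in order. Samples iKO 1 and 2 were far below every other sample, and iKO 3 lay within the control range (-1.35 ± 0.49, adjusted p = 0.164). The log2 fold change was -0.63 without iKO 1 and 2 together (adjusted p = 0.249) and -2.84 without iKO 3 and 4 together (adjusted p = 1.3e-05). Apoe RNA outside macrophages moved the same way: at 5000 UMIs 7.18% to 12.4% of Cd3e-positive cells had an Apoe UMI in iKO and 33.5% to 41.7% in control samples. Its part in the result was not tested. In the C1q-positive cells the shares were 47.2% to 76.1% and 86.5% to 88.4%. Mrc1, the mannose receptor CD206, read 81.9, 84.2, 592 and 500.1 CPM in iKO and 234, 325, 325 and 505 CPM in control samples. Pf4 read 44.0, 99.4, 1886 and 1178 CPM against 448, 304, 705 and 2448 CPM. Their fold changes, -0.15 ± 0.56 and -0.30 ± 0.96, average over samples that lie apart. Trem2, a lipid receptor, showed the same split, at 79.1, 93.9, 395 and 287 CPM in iKO and 218, 223, 254 and 257 CPM in control samples.

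**Figure D4:**
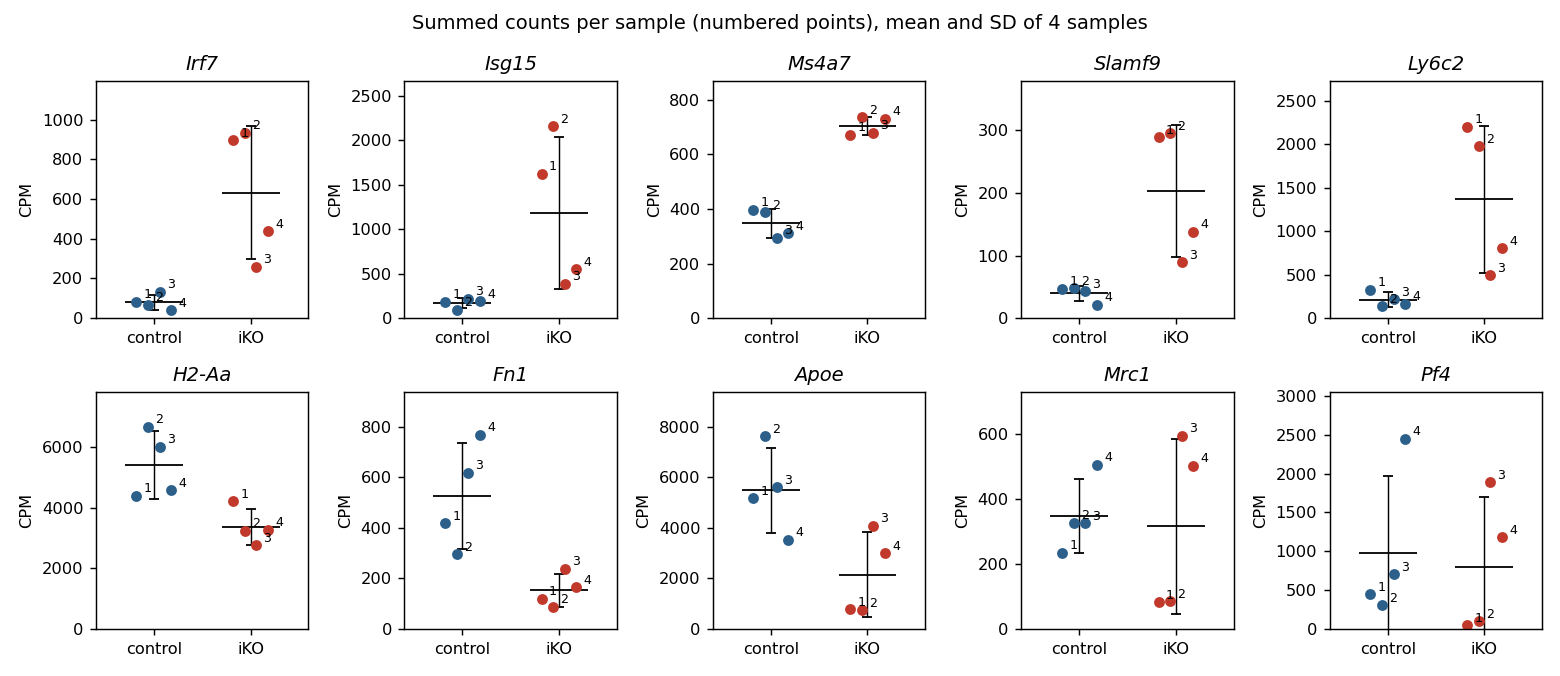
CPM of 10 genes in the summed C1q-positive cells of each sample; numbered points are samples 1 to 4 of each genotype, lines are means and bars SD. Irf7, Isg15, Ms4a7, Slamf9, Ly6c2, H2-Aa and Fn1 do not overlap between genotypes, whereas Apoe, Mrc1 and Pf4 do. Apoe, Mrc1 and Pf4 separate iKO 1 and 2 from iKO 3 and 4, as do Irf7, Isg15, Slamf9, Ly6c2 and Fn1.

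The resident-type list showed this split in its median. Of 13 tested resident-type genes none was called higher and 1 lower (Ccl24, an eosinophil-attracting chemokine), with a median of -0.30. The median was 0.29 with 7 of 13 genes above 0 without iKO 1 and 2, and -1.90 with 8 called lower without iKO 3 and 4. Ccl24 read 3.70, 9.03, 16.3 and 5.06 CPM in iKO and 8.57, 161, 50.9 and 163 CPM in control samples, so control 1 lay among the iKO samples (-3.63 ± 0.69, adjusted p = 0.0198). Of 19 tested lipid-associated genes 1 was called higher (Ctsb) and none lower, with a median of 0.16, which was 0.095 without iKO 1 and 2 together and -0.10 without iKO 3 and 4 together. Of 16 tested genes of dead-cell uptake and scavenging none was called. Mertk did not overlap between the groups, with 16.6 ± 7.54 CPM in iKO and 44.7 ± 16.4 CPM in control samples (SD, n = 4), and just missed the threshold (-1.41 ± 0.34, edgeR adjusted p = 0.0517). Such a lack of overlap was seen for 11.2% of all tested genes.

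Of 15 tested monocyte genes 3 were called higher, Ly6c2, Ly6a and Ms4a4c, and 1 lower, Gsr, with a median of -0.08. The shares over all tested genes were 1.88% higher and 1.3% lower. Ly6c2 read 2198, 1974, 492 and 804 CPM in iKO and 329, 139, 219 and 169 CPM in control samples (2.69 ± 0.45, adjusted p = 0.0145). Ly6a, which encodes Sca-1 and is interferon-inducible, read 2146, 1756, 314 and 853 CPM against 246, 181, 250 and 115 CPM (2.69 ± 0.49). At 5000 UMIs 56.8% to 87.1% of C1q-positive iKO cells and 30.8% to 35.0% of control cells had a Ly6c2 UMI. Among Cd3e-positive cells, some of which express it themselves, the shares were 58.9% to 86.4% and 35.2% to 50.5%. They are therefore no measure of free Ly6c2 RNA, whose part here was not tested. Ccr2 was not called (-0.26 ± 0.11) and read 683 to 885 CPM in iKO and 883 to 1072 CPM in control samples.

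Complement, Fc receptor, and checkpoint and costimulatory genes changed in few members. Over all tested genes 1.88% were called higher and 1.3% lower, and the groups did not overlap for 11.2%. These shares belong beside the counts of every list, also those for secreted factors and for remodelling and metabolic genes below. Outside C1q, 2 of 11 tested complement genes were called higher, C3ar1 and Cfb, and none lower. C3ar1, the receptor for the C3a fragment, read 488, 462, 373 and 470 CPM in iKO and 234, 242, 298 and 290 CPM in control samples (0.75 ± 0.12, adjusted p = 0.0140). Fcgr1, the high-affinity IgG receptor, was the only 1 of 7 Fc receptor genes called (1060, 1091, 492 and 607 against 485, 274, 345 and 358 CPM; 1.16 ± 0.26, adjusted p = 0.0348). Fcgr2b and Fcgr3 did not overlap and were lower in iKO without being called (-0.41 and -0.34, adjusted p = 0.0671 and 0.0656). Of 21 tested checkpoint and costimulatory genes 4 were called higher and none lower: Lgals9, Cd300ld, Slamf9 and Siglec1. Siglec1, the sialic acid receptor CD169, read 33.8, 24.6, 24.7 and 37.5 CPM against 7.35, 9.91, 11.7 and 6.35 CPM (1.82 ± 0.24, adjusted p = 0.00798), with no split between the iKO pairs. Lgals9, which encodes galectin-9, read 184, 202, 155 and 170 CPM against 95.5, 73.0, 109 and 66.1 CPM (1.06 ± 0.16).

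Secreted factors showed single changes. Ccl4, an inflammatory chemokine, read 1970, 1696, 1192 and 1413 CPM in iKO and 510, 529, 987 and 832 CPM in control samples (1.13 ± 0.22, adjusted p = 0.0219). It was the 1 of 16 tested chemokine genes called higher, and Ccl24 the 1 called lower. Ccl2 and Ccl7 read 2622 to 4573 and 1447 to 2616 CPM in iKO and 1019 to 3978 and 507 to 2315 CPM in control samples, and were not called. Of 19 tested cytokine genes 2 were called higher, none lower. Il1rn, the interleukin-1 receptor antagonist, read 743, 658, 265 and 237 CPM against 174, 146, 138 and 220 CPM (1.48 ± 0.35, adjusted p = 0.0435). Il10 read 15.7, 15.2, 11.2 and 20.5 CPM in iKO and 0, 0, 6.43 and 4.91 CPM in control samples (2.08 ± 0.49, adjusted p = 0.0420). Il10 was called in 1 of 8 leave-outs. Il1b (-0.39 ± 0.20) and Tgfb1 (-0.08 ± 0.11) were not called.

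Remodelling and metabolic genes changed singly. Fn1, which encodes fibronectin, read 119, 87.1, 238 and 165 CPM in iKO and 417, 295, 618 and 767 CPM in control samples (-1.80 ± 0.33, adjusted p = 0.0173). Of 18 tested remodelling genes 3 were called lower (Fn1, Ccl24, Mmp8) and none higher. In lipid metabolism, of 21 tested, the transcription factor gene Pparg was called higher (44.3 to 79.1 CPM in iKO, 14.7 to 34.9 CPM in control samples; 1.29 ± 0.25, adjusted p = 0.0204). Sqle, an enzyme of cholesterol synthesis, was called lower (-0.89 ± 0.22, adjusted p = 0.0496, in 1 of 8 leave-outs). Of 23 tested lysosomal genes Ctsb (0.45 ± 0.09) and Grn (0.52 ± 0.11) were called higher, none lower, and the median was 0.20. Of 23 tested hypoxia and glycolysis genes 1 was called lower, Bnip3l (-0.63 ± 0.12). None of 10 iron-handling genes was called. Of 22 macrophage transcription factors Pparg alone was called, and Maf (0.27 ± 0.23) was not.

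The other large falls, chosen by the same rule as the rises, were Fkbp5, Cd38, Rgcc, Wdr89, Tmem176a, Rps10, Errfi1, Mgst1, Tmem176b, St8sia4 and Klhl24, beside Fn1. Fkbp5, a glucocorticoid-responsive chaperone, read 6.48, 4.34, 7.85 and 7.09 CPM in iKO and 14.7, 54.1, 78.4 and 9.53 CPM in control samples (-2.59 ± 0.61, adjusted p = 0.0438). Tmem176a and Tmem176b, a pair of neighbouring membrane genes, fell together by 1.25 and 1.09 on the log2 scale. Cd38, an ectoenzyme that consumes NAD, read 16.2 to 20.5 CPM in iKO and 28.6 to 79.6 CPM in control samples (-1.52 ± 0.28). Rps10, Wdr89, Mgst1 and St8sia4 were called in 8 of 8 leave-outs, Fkbp5 and Klhl24 in 2. Ccnd1, which encodes cyclin D1, and Ckb, a creatine kinase, were named after their values were seen, for their small adjusted p. Ccnd1 read 211, 239, 162 and 167 CPM in iKO and 62.4, 55.9, 52.6 and 42.4 CPM in control samples (1.90 ± 0.16, adjusted p = 0.000376). Ckb had a log2 fold change of 1.32 ± 0.15 (adjusted p = 0.00303).

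**Figure D5:**
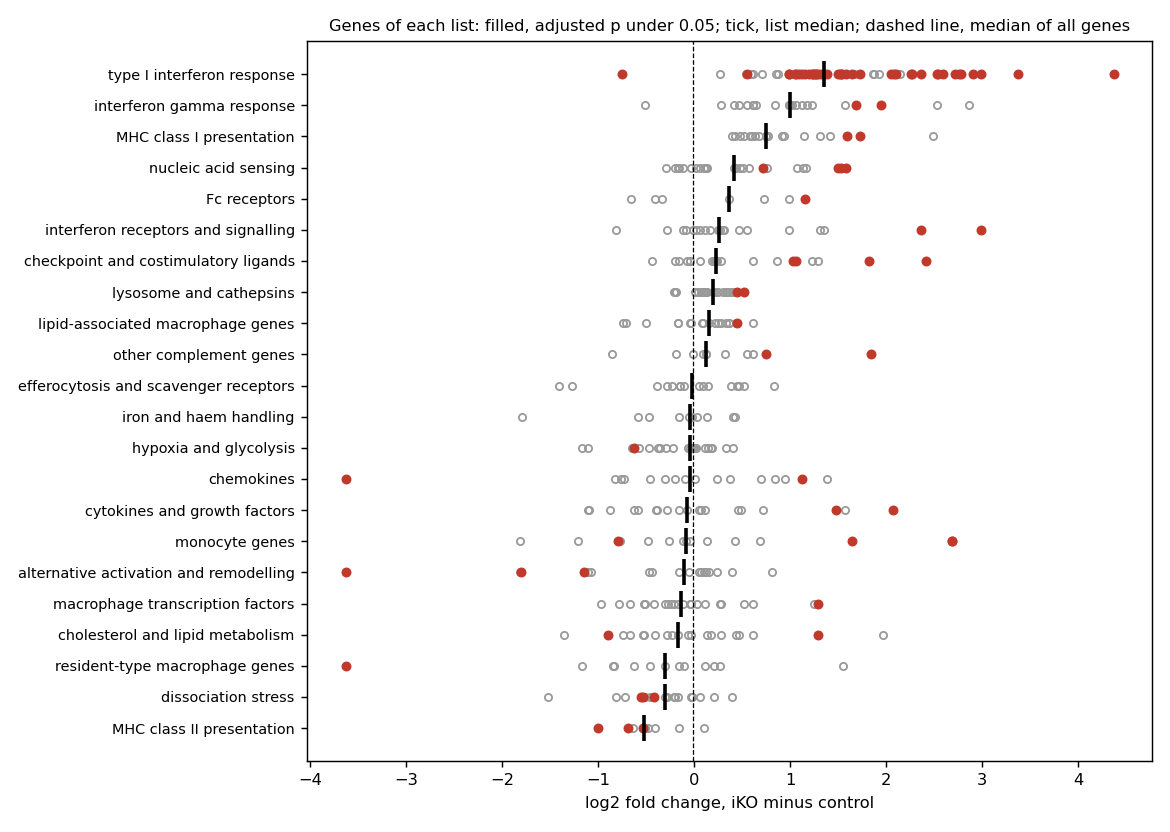
Log2 fold changes (iKO minus control) of the tested genes of each list in the C1q-positive cells, filled where the adjusted p is under 0.05, with the list median as a tick and the median of all genes as a dashed line. Of the lists drawn, the type I interferon list has the highest median, 1.36, and the MHC class II list the lowest, -0.52.

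Further groups moved with genotype and with the pools and were looked at for that reason. Ribosomal protein genes, picked after their values were seen, were lower in iKO for 77 of 78 tested, 34 of them called, with a median of -0.38. They made up 13.7% to 17.6% of UMIs in iKO and 18.8% to 21.3% in control samples. The largest of these, Rps10, read 631, 705, 779 and 742 CPM in iKO and 1557, 1778, 1629 and 1637 CPM in control samples (-1.21 ± 0.09, adjusted p = 0.00037). Such genes have many near-identical copies, and their levels are uncertain for that reason. Of 21 early-response genes that tissue digestion can induce, 3 were called lower (Junb, Zfp36, Egr1), none higher, and the median was -0.30. Over all tested genes 1.3% were called lower. Junb read 1469, 1268, 1389 and 1428 CPM in iKO and 2101, 1783, 1851 and 2300 CPM in control samples (-0.53 ± 0.10, adjusted p = 0.0202). Whether library preparation set either group was not tested.

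RNA of lymphocytes also differed between the pools. Gzmb, the granzyme of cytotoxic lymphocytes, read 25.9, 29.3, 22.4 and 27.1 CPM in the iKO C1q-positive cells and 4.90, 3.60, 2.34 and 4.62 CPM in control cells (2.74 ± 0.23, adjusted p = 0.000376). Nkg7 and Cd8a were called higher too, and Igkc, an antibody light chain, lower (-2.40 ± 0.31, adjusted p = 0.00620). Of the 992 cells, 76.1% to 82.7% in the iKO samples and 51.9% to 58.0% in the control samples had a UMI of Cd3d, Cd3g, Trac, Trbc1, Trbc2 or Nkg7. At 5000 UMIs those shares were 37.4% to 48.8% and 20.5% to 32.7%, with medians of 1 to 2 such UMIs per unthinned cell. Gzmb was seen in 9.09% to 14.2% of iKO and 0% to 2.90% of control cells, against 55.4% to 86.0% and 24.2% to 50.1% of Cd3e-positive cells. In cells without any UMI of those 6 genes 170 of the tested genes were called. That fit had fewer cells and 5054 genes tested.

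The same genes were then compared in the neighbouring populations of the same samples. The log2 fold change of Irf7 was 2.93 in Arg1-positive, 2.19 in Cxcl9/Cxcl10-positive and 3.09 in C1q-low cells, beside 2.99 in the C1q-positive cells. Ms4a7 had 0.97, 0.20 and 1.04, beside 1.02. H2-Aa had -0.28, -0.80 and -0.76, beside -0.68. The difference of the genotype effects was tested with an edgeR interaction term, with sample as a block. Against Arg1-positive cells, 0 of 8772 genes outside the rule were called (0%), with a lowest adjusted p of 0.176, and 674 had an unadjusted p under 0.05. No other tool was run on this contrast.

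Against Cxcl9/Cxcl10-positive cells 15 of 8845 genes differed in their genotype effect (0.17%). Those of at least 20 CPM were Ear2, Vcan, Fn1, Hp, Gda, Osm and S100a4, with a more negative effect in the C1q-positive cells, and Tubb5, Snapc1 and Slamf9, with a more positive one. For Vcan, a proteoglycan of monocytes, the effect fitted in each population alone was -1.21 in the C1q-positive cells and 0.40 in the Cxcl9/Cxcl10-positive cells. The interaction coefficient, which comes from the joint fit with sample as a block and so is not the plain difference of those values, was -1.87 ± 0.29 (adjusted p = 0.0112). For Fn1 the separate effects were -1.80 and -0.46 and the coefficient -1.39 ± 0.24 (adjusted p = 0.0188). For Hp, haptoglobin, they were -0.77 and 0.47 (coefficient -1.29 ± 0.15, adjusted p = 0.00224). For Slamf9 the effect was 2.42 in the C1q-positive cells and smaller in the others (coefficient 1.26 ± 0.19, adjusted p = 0.0112). Leaving out iKO 1 took the count to 8 and leaving out control 1 to 4. With both gates drawn from counts thinned to 5000 UMIs, none was called. That fit also lacked control 2 and 3, whose 16 and 14 Cxcl9/Cxcl10-positive cells fell under the minimum of 20 per profile. The part of depth in that fall was not tested. The populations were themselves separated by chemokines that interferon induces.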

How the data were processed

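The deposited files hold raw UMI counts per gene and barcode, 1 matrix for each of 8 hashtagged samples, made by the authors with Cell Ranger 7.1.0 on GRCm39, per the submitters' processing notes. Any filtering of barcodes before deposit is not given in the sources used here. Hashtag and spike-in features were left out. The cells, the gene lists and the rule were chosen with earlier results of these data known. No cells were removed as doublets; 4 of the 992 had a Scrublet score (scanpy 1.11.5) over 0.25.

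UMIs were summed over the cells of each sample and tested with edgeR 4.0.16 (R 4.3.3): TMM scaling, filterByExpr, quasi-likelihood test, genotype as the term, Benjamini-Hochberg adjustment over all genes, threshold 0.05. Genes of the rule stayed in the fit and were left out of counts. All adjusted p-values of gene comparisons are from edgeR. Interactions used 2 profiles per sample with sample as a block. Levels in other populations are plain CPM. Named genes were the 12 largest rises and 12 largest falls among called genes of at least 20 CPM without overlap, and, of each list, the called and uncalled members of highest level. Lists are described by counts and medians, and a planned exact test on list medians was left out since the lists were chosen with results known. Intervals and limits from counts cover counting error only. In simulated data for the genotype comparison (8610 genes, 8485 tested, 200 changed 4-fold), 94.5% of changed genes were recovered, 4.06% of calls were false and 100% of recovered genes had the right sign. The simulated samples of a group varied independently, without the split of the iKO samples into pairs. These rates therefore do not describe calls in the real data.

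Alternatives were RLE scaling, no low-count filter, DESeq2 1.42.0, a replicate block, other C1q, Arg1 and Cxcl9/Cxcl10 limits, gates drawn on counts thinned to 5000 UMIs, a window of 5000 to 20000 UMIs per cell, no doublets, no cells with lymphocyte UMIs, and each sample left out. Leaving out iKO samples 1 and 2, or 3 and 4, together was added after seeing the data.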

Additional observations from a re-analysis of the deposited data

Results flagged for a closer look

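In 4 of 184 groups of 4 samples the highest or lowest value stood apart from the other 3 by Dixon's criterion, which chance meets in about 1 in 20 groups. Wdr89 was at 40.4 CPM in its lowest control sample, with the others at 46.8 to 47.7 CPM. Klhl24 reached 19.4 CPM in 1 iKO sample, with the others at 12.9 to 13.4 CPM. Slamf9 was at 21.6 CPM in its lowest control sample, with the others at 43.3 to 47.8 CPM, and Mmp8 reached 40.4 CPM in 1 control sample, with the others at 19.8 to 21.9 CPM.

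For 10 genes of at least 20 CPM the genotype effect in the C1q-positive cells differed from that in the Cxcl9/Cxcl10-positive cells by the interaction test. The interaction coefficient (log2) from the joint fit was -2.25 for Ear2, an eosinophil-type ribonuclease with near-identical relatives, -1.87 for Vcan, -1.39 for Fn1, -1.29 for Hp and -0.94 for Gda. It was -0.881 for Osm, the cytokine oncostatin M, and -0.527 for S100a4. In the other direction it was 0.701 for Tubb5, a tubulin, 0.972 for Snapc1 and 1.26 for Slamf9.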

How the results depend on the processing

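The count of genes called between genotypes, 274 as reported, was 514 of 15994 without a low-count filter, 432 with DESeq2, 151 with the thinned gate, 170 without cells holding lymphocyte UMIs, 124 without iKO 1 and 2 together and 1121 without iKO 3 and 4 together. With 1 sample left out it ran from 41 to 514. Fewer genes (5054) were tested without lymphocyte UMIs; the cause of the other shifts was not tested. Replicate numbers did not pair the samples (correlations 0.083, -0.041, -0.016 and 0.037), and a replicate block gave 220 calls. Against Arg1-positive cells, 0 interactions became 104 without a filter and 0 to 2 with 1 sample left out. Against Cxcl9/Cxcl10-positive cells, 15 became 0 with the thinned gate, 155 without a filter, 4 in the depth window and 4 to 18 with 1 sample left out. For this contrast the thinned gate and the depth window both lost control 2 and 3, which held fewer than 20 Cxcl9/Cxcl10-positive cells there. The difference in the share of kept barcodes, 0.52 percentage points, was -1.20 without the Arg1 ceiling, -1.23 with the thinned gate and -0.408 to 1.54 with 1 sample left out. The log2 fold change of Mrc1 was 0.63 without iKO 1 and 2 together and ran from -0.64 to 0.16 with 1 sample left out. That of Pf4 was 0.62 without iKO 1 and 2 together, 0.199 in the depth window, 0.199 without lymphocyte UMIs and -1.16 to 0.72 with 1 sample left out. Over 75 named genes and 1635 values, 1247 kept direction and call, 373 lost the call, 5 gained it and 10 reversed. Raw UMI gates depend on depth. The smallest profile of the main genotype fit held 54 cells (control 1). Without cells holding lymphocyte UMIs the smallest held 21 (iKO 3). In the Cxcl9/Cxcl10-positive cells of the interaction, control 2 and 3 held 22 and 21.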
